A study of Mus musculus with 12 samples.

Results

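Cultures of mouse trigeminal ganglion neurons that had received miR-21 were compared directly with cultures that had received miR-324. The comparison takes the 3 arrays titled miR-21 and the 3 titled miR-324, 6 of the 12 arrays of the study, and covers all 19572 probes that pair with 1 gene symbol (of 22206 probes). The trigeminal ganglion holds the cell bodies of facial and oral sensory neurons. Per the labels, the cells were a primary culture on laminin-coated coverslips, transfected with 1 miRNA or with scramble miRNAs, and total RNA was isolated from them. The levels of the 3 scramble arrays, the controls, are given only as a reference. The scramble arrays and the remaining 3 arrays (miR-34a) also lend their spread to the fit, and so to every SE and p-value. No strain, age, genotype, dose or time after transfection is given in the labels used here. All 12 arrays stand for transfected cells, and nothing says whether the 3 arrays of a group stand for different animals or cultures. The p-values therefore rest on the spread between arrays alone, and how much of it is technical is not known.

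A miRNA is a short RNA that guides a silencing complex to transcripts by pairing mainly through its seed, bases 2 to 8 counted from the 5′ end, and lowers the stability and translation of those transcripts. miR-21 is abundant in many tumours and in injured tissue and is known for reported targets that restrain growth, such as Pdcd4. miR-324 has reported targets in Hedgehog signalling, such as Smo and Gli1. A culture of a sensory ganglion also holds satellite glia, which wrap the neuron bodies, Schwann cells, which myelinate axons, and fibroblasts, endothelial cells and macrophages. Because an array reads the summed RNA of a culture, fewer cells of a type and less RNA per cell cannot be told apart.

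The mature sequences are shown because the compared cultures differed by which of these RNAs they received. Each sequence is from the RefSeq annotation of GRCm38.p6 and is written 5′ to 3′ with the seed in capitals. The labels name no arm for either miRNA, so both arms are given.
mmu-miR-21a-5p: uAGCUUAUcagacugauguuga
mmu-miR-21a-3p: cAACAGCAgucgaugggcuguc
mmu-miR-324-5p: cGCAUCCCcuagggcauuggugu
mmu-miR-324-3p: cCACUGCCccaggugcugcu
Both genes lie on chromosome 11. The miR-21a arms are at chr11:86584120-86584141 (5p) and chr11:86584082-86584103 (3p) on the minus strand, and the miR-324 arms at chr11:70012060-70012082 (5p) and chr11:70012095-70012114 (3p) on the plus strand. No seed is shared among the 4 sequences.

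Signals are log2 values on which an increase of 1 is a doubling, and differences below are miR-21 minus miR-324, each ± its standard error (SE) in the fit. Values in groups of 3 are always in the order miR-21 1, 2 and 3, then miR-324 1, 2 and 4, then scramble 1, 2 and 3. The neuronal label was met by the general neuronal genes: the neuronal tubulin Tubb3 stood at 12.84, 12.62 and 13.40 with miR-21 and at 10.83, 12.93 and 12.55 with miR-324. Myelin, matrix, endothelial and pituitary hormone transcripts were also read, with the levels given below. Across genes the miR-21 arrays correlated at 0.984 to 0.991 with each other, the miR-324 arrays at 0.967 to 0.986, and the 2 groups at 0.960 to 0.969 (9 pairs, with genes that are not independent replicates). miR-324 1 stood furthest from its group, with 11.76% of probes more than 2-fold away from the mean of miR-324 2 and 4, against 2.24% to 7.56% for the other 5 arrays. miR-324 1 correlated at 0.98 with miR-34a 3, above its 0.967 and 0.975 with miR-324 2 and 4. Scramble 3 correlated at 0.987 and 0.986 with miR-324 2 and 4. Array labels of miR-324 2 and scramble 3 share a suffix (called B here). Those of scramble 1 and 2 and of miR-34a 1 and 2 share another (A). The miR-21 arrays, miR-324 1, miR-324 4 and miR-34a 3 carry none. The labels of miR-324 2 and scramble 3 are also the only ones that hold the word mimic. What the suffixes and this word stand for is not stated.

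The 2 miRNA groups differed in 481 of the 19572 probes (2.46%) at an adjusted p under 0.05. Counts over all genes are counts of these probes, and 55 of the 19505 symbols have more than 1 probe. Of these, 257 (1.31%) were higher and 224 (1.14%) lower in the miR-21 arrays, while the median difference of all genes was 0.05. In 2552 genes (13.0%) all 3 miR-21 arrays lay above all 3 miR-324 arrays and in 1644 (8.40%) all lay below, and every called gene was among these. Groups that lie apart in this way are called separate below. These shares of called and of separate genes are the reference for each count of list members below. Called differences were large, with a median size of 1.99 and a smallest size of 0.83: 108 genes were higher and 129 lower by at least 2, and 12 were higher and 19 lower by at least 4.

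**Figure D1:**
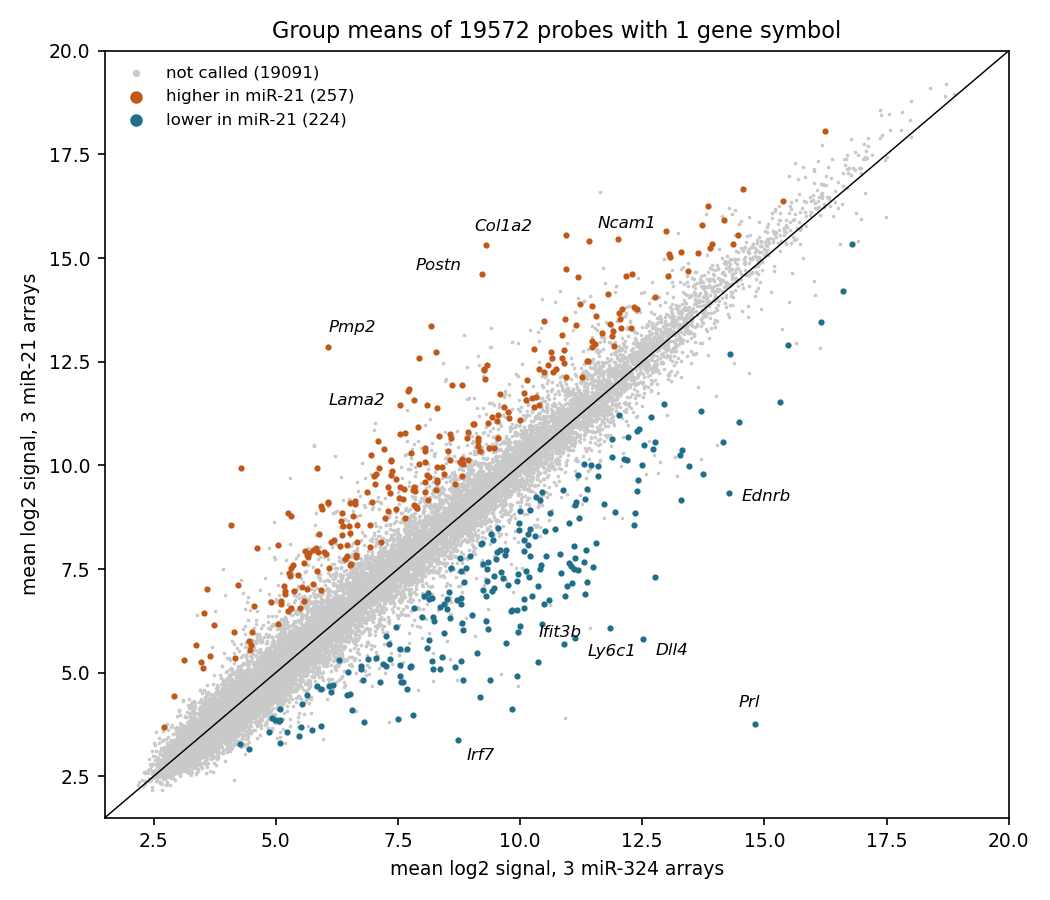
Mean log2 signal of each of the 19572 probes in the 3 miR-21 arrays (vertical axis) against the 3 miR-324 arrays (horizontal axis); coloured points are the 257 genes called higher and the 224 called lower, and the line marks equal means. Prl lies farthest below the line and Pmp2, Col1a2 and Postn lie far above it.

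The number of calls moved with single arrays. It was 86, 124 and 165 without miR-21 1, 2 or 3, 187 and 135 without miR-324 2 or 4, and 402 without miR-324 1. Of the 481 genes, 73 (34 higher and 39 lower) passed in all 6 of these fits and 154 in none. With only the 6 compared arrays in the fit 1043 genes passed, including 468 of the 481. That fit leaves out the spread within the scramble and miR-34a groups, which enters the main fit. With a fixed block for the label suffix 1354 passed, including all 481 with the same sign. The scramble arrays did not lie together on these genes. On a scale where 0 is the mean of the miR-324 arrays and 1 that of the miR-21 arrays, the 257 higher genes had a median position of 0.42 in scramble 1, 0.51 in scramble 2 and −0.09 in scramble 3, and the 224 lower genes 0.62, 0.54 and 0.07. Scramble 3 was nearer to the miR-324 mean in 248 of the 257 and in 203 of the 224.

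**Figure D2:**
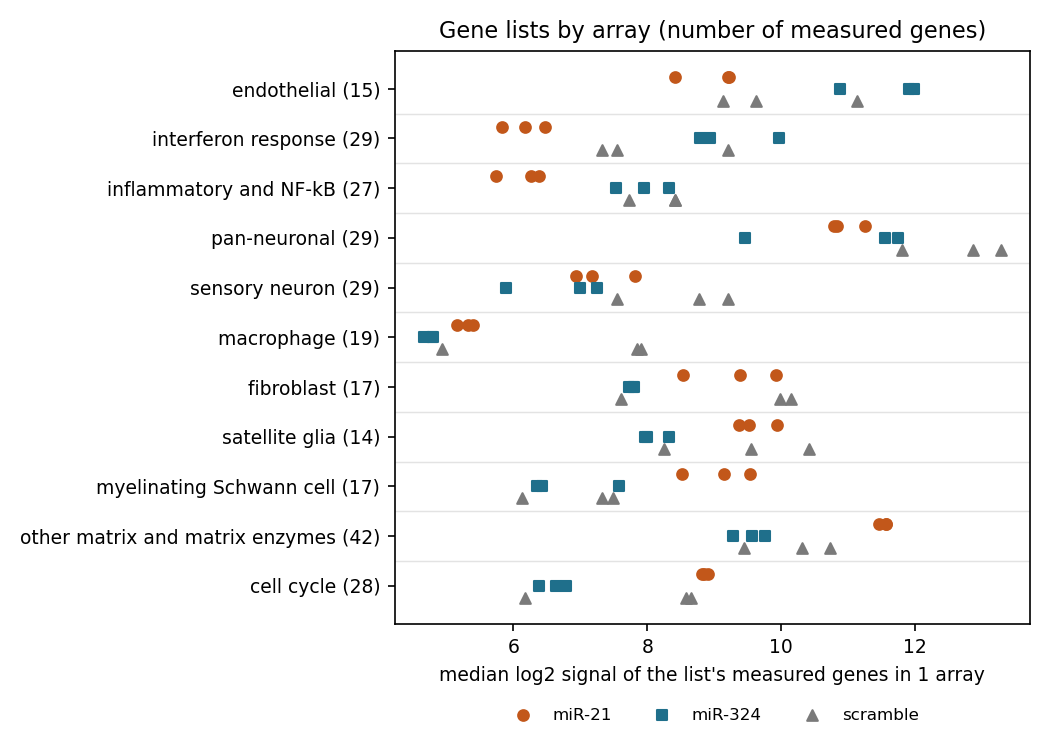
Median log2 signal of the measured genes of 11 gene lists (vertical axis, with the number of genes) in each miR-21, miR-324 and scramble array, 1 point per array. The miR-21 and miR-324 arrays are apart for endothelial, interferon response, NF-kB, macrophage, fibroblast, satellite glia, myelin, matrix and cell cycle genes. Scramble 3 is nearer to the mean of the miR-324 arrays than scramble 1 and 2 are in every list shown except the myelin list.

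The largest difference of the comparison was in Prl, the pituitary hormone prolactin. Prl stood at 3.37, 3.95 and 3.98 with miR-21, at 14.98, 14.26 and 15.17 with miR-324, and at 3.42, 4.83 and 14.92 in scramble. It was lower in the miR-21 arrays by 11.04 ± 2.09 (adjusted p = 0.0186), and among the fits without 1 array it passed only without miR-324 1. The spread of Prl in scramble (standard deviation 6.27, against 0.34 with miR-21 and 0.48 with miR-324) enters the error of these fits. Prl was thus high in the miR-324 arrays and scramble 3 and low in scramble 1 and 2. Cga, the subunit common to several pituitary hormones, stood at 4.11, 4.24 and 3.37 against 12.82, 8.69 and 11.26, with scramble at 3.67, 3.80 and 11.85; it did not pass (difference −7.02 ± 1.71, adjusted p = 0.054). Growth hormone, Gh, was at 3.95, 4.00 and 3.50 against 4.45, 9.15 and 8.34 (adjusted p = 0.297). Lhb and Pomc differed by −1.62 and −1.39 and the remaining 2 hormones, Fshb and Tshb, by −0.21 and −0.18, none past the threshold. With only the 6 compared arrays in the fit 2 of the 7 hormones passed, Prl (adjusted p = 2.98e-07) and Cga (adjusted p = 0.000978). Of 15 measured pituitary transcription factors and receptors 0 passed (median 0.01), and their median level was 4.02 to 4.08 with miR-21 and 3.82 to 4.40 with miR-324. The part of pituitary transcripts in the other differences was not tested.

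Y-linked transcripts also varied, and within the miR-324 group. Eif2s3y, a translation factor gene of that chromosome, read 7.26, 7.09 and 7.85 with miR-21, 7.88, 2.96 and 5.13 with miR-324 and 2.93, 2.27 and 2.13 with scramble. Kdm5d and Uty, also Y-linked, were at 6.32, 2.84 and 4.65 and at 8.46, 5.17 and 7.44 with miR-324, against 6.43, 5.36 and 6.70 and 9.16, 7.78 and 8.87 with miR-21. All 3 overlapped between the groups, and none passed (adjusted p = 0.512 to 0.661). Of 45 probes on the Y chromosome 1 was called, against 2.46% of all probes.

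**Figure D3:**
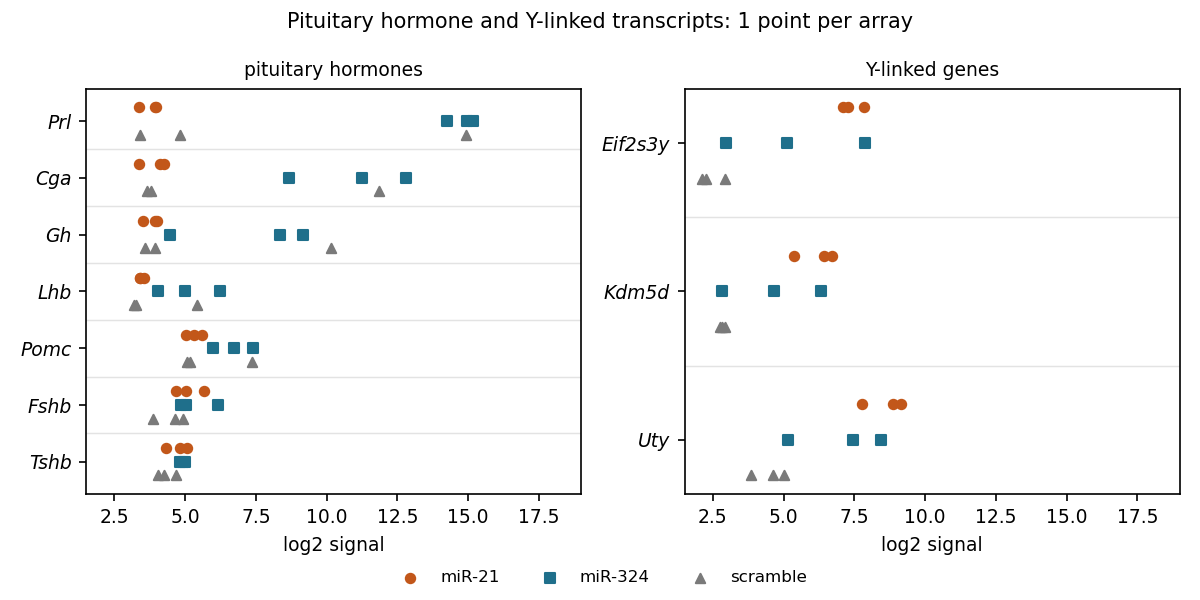
Log2 signal of 7 pituitary hormone genes (left) and 3 Y-linked genes (right) in the miR-21, miR-324 and scramble arrays, 1 point per array. Prl and Cga are high in the 3 miR-324 arrays and in scramble 3, and Eif2s3y is at 7.09 or more in the miR-21 arrays and in miR-324 1 only.

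Of the 36 gene lists, the interferon response held the most genes lower in the miR-21 arrays. Interferons bind cell surface receptors, which signal through Janus kinases to switch on antiviral genes. Of 29 measured genes of this response 18 were lower and 0 higher, where 1.14% of all genes were called lower. All 29 were lower in the mean, 22 with separate groups, where 8.40% of all genes were separate in this direction. The median difference was −2.25 against 0.05 over all genes. Per array, the median level of the list was 6.17, 6.47 and 5.83 with miR-21, 9.97, 8.78 and 8.93 with miR-324 and 7.33, 7.54 and 9.21 with scramble. Scramble 1 and 2 thus lay between the groups, and scramble 3 within the range of the miR-324 arrays. Without 1 array the count was 7, 6 and 9 (miR-21 1, 2 or 3 left out) and 13, 13 and 11 (miR-324 1, 2 or 4 left out).

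Among the regulators of the response, Irf9, a DNA-binding transcription factor of interferon signalling, stood at 5.95, 5.62 and 5.83 with miR-21, 8.52, 7.66 and 8.21 with miR-324 and 8.07, 8.80 and 8.66 in scramble. It was lower in the miR-21 arrays by 2.33 ± 0.28 (adjusted p = 0.0035), and all 3 scramble arrays lay with miR-324 or above. Irf7, which amplifies interferon production, was at 3.07, 3.53 and 3.56 against 10.84, 6.56 and 8.79, with scramble at 5.38, 6.48 and 8.42 (difference −5.34 ± 0.91, adjusted p = 0.0116). The spread of Irf7 among the miR-324 arrays was wide, and the call was absent without miR-21 1, miR-21 2 or miR-324 4. Usp18, a protease that removes Isg15 from proteins and restrains the receptor, was at 4.94, 3.92 and 4.40 against 10.47, 8.13 and 8.93 (−4.76 ± 0.79, adjusted p = 0.0101), and was absent from the calls only without miR-21 2.

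Among the antiviral effectors, Oasl2, a protein related to the sensors of double-stranded RNA, varied little between the miR-21 arrays. Oasl2 stood at 6.85, 6.82 and 6.85 with miR-21, 11.85, 10.59 and 10.34 with miR-324 and 9.85, 10.80 and 10.97 in scramble, a 17.0-fold difference between the miRNA groups (−4.09 ± 0.41, adjusted p = 0.00267). Ifit1, which binds foreign RNA caps, was at 4.19, 5.52 and 5.04 against 11.28, 9.45 and 9.07, with scramble at 7.04, 8.13 and 9.86 (−5.02 ± 0.69, adjusted p = 0.00516). Ifit3, its partner, was at 6.95, 8.15 and 6.86 against 14.54, 11.43 and 12.31, with scramble at 7.85, 8.78 and 12.75 (−5.44 ± 1.08, adjusted p = 0.0229). The near-identical Ifit3b differed by −5.76 (adjusted p = 0.0136), and the array may not tell the pair apart. In the fits without 1 array Oasl2, Ifit1 and Irf9 passed throughout, Ifit3 only without miR-324 2 and Ifit3b only without miR-324 1 or 2. Cmpk2, a nucleotide kinase induced by interferon that is not on the list, was at 4.81, 3.78 and 3.82 against 11.55, 8.69 and 9.28 (−5.70 ± 1.00, adjusted p = 0.0133) and passed only without a miR-324 array.

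Of the other 12 genes of the response that were lower, named here after their values were seen, Xaf1 and Irf1 (−3.30 and −2.25) also passed in all 6 fits without 1 array. Bst2, which tethers budding virions, and the RNA sensor Ifih1 (−3.76 and −3.84) passed in 4. Stat2 and the RNA sensor Ddx58 (−2.06 and −2.37) passed in 3, as did Ifi35, and Isg15, the ubiquitin-like protein of this response (−3.83), in 2. Rsad2, Gbp2, Gbp3 and Parp14 (−4.57, −3.43, −3.33 and −1.99) passed in none. The 11 genes that did not pass included Cxcl10, a chemokine, and Mx2 (−1.60 and −1.35, adjusted p = 0.121 and 0.209), and 5 of the 11, Zbp1, Mx1, Oas3, Ifit2 and Oas2, differed by less than 0.5 in size.

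Promoters are shown for 3 of the lower genes that hold the motif searched here. Many members of the response are known to share an interferon-stimulated response element. The motif searched was GAAA, any 2 bases and GAAA again, on both strands, in windows of 300 bases (250 before and 50 after the annotated gene start, RefSeq, GRCm38.p6); neighbouring matches can overlap. It was present in 10 of the 16 lower interferon genes that have a window (62.5%), in 3 of the 7 that were not called (42.9%), and in 1131 of all 32851 windows (3.44%). The lower genes whose windows held no match were Irf9, Irf7, Oasl2, Xaf1, Irf1 and Ifi35. Of these, Irf9, Oasl2, Xaf1 and Irf1 passed in all 6 fits without 1 array. Capitals mark the matches, a description of the letters and not a measured site.
Ifit1: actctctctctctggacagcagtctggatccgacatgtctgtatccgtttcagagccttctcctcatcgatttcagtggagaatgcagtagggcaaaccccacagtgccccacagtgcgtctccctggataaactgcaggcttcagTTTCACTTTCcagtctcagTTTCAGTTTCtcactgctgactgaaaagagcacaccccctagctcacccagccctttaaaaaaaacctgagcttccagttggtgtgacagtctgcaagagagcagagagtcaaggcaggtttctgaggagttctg
Ifit3: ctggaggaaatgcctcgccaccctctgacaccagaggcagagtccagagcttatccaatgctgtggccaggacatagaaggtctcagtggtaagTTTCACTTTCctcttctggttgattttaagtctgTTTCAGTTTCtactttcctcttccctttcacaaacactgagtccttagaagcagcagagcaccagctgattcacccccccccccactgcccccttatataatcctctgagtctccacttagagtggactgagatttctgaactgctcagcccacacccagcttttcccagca
Isg15: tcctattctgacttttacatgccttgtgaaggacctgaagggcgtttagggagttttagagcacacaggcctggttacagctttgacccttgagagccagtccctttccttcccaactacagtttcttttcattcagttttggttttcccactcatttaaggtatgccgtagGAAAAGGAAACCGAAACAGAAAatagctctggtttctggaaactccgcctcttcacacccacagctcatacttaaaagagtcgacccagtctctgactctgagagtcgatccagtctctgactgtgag
The Ifit1 window is chr19:34640639-34640938 on the plus strand, with matches that start 104 and 85 bases before the gene start. The Ifit3 window is chr19:34583279-34583578, also on the plus strand, with matches at 156 and 122 bases. The Isg15 window is chr4:156200769-156201068 on the minus strand, with 3 overlapping matches at 78, 72 and 66 bases. Matches in Ifit1 and Ifit3 lie on the strand opposite to the printed one, so their reverse complement is in capitals, and those in Isg15 lie on the printed strand. Over all called genes with a window the motif was in 28 of the 174 lower (16.1%) and in 9 of the 207 higher genes (4.35%), against 618 of 15691 measured genes (3.94%).

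Inflammatory and NF-kB genes, which tumour necrosis factor and interleukin 1 induce, had 4 of 27 members lower and 0 higher (median −0.67). Over all genes 1.14% were called lower. In the mean 17 were lower, 11 with separate groups, and 10 were higher, 3 with separate groups and by up to 3.22. The shares of separate genes over all genes were 8.40% lower and 13.0% higher. Birc3, an inhibitor of cell death in this pathway, stood at 7.57, 7.38 and 7.57 with miR-21, 9.12, 9.51 and 9.37 with miR-324 and 8.66, 8.56 and 8.61 in scramble (−1.83 ± 0.30, adjusted p = 0.00928), and passed in all 6 fits without 1 array. Ccl5, a T-cell chemokine also induced by interferon, was at 3.62, 3.82 and 3.71 against 7.11, 5.31 and 5.37 (−2.21 ± 0.43, adjusted p = 0.0217), and passed only without a miR-324 array. Tnfaip2 and Nfkbia, the latter the inhibitor that holds NF-kB in the cytoplasm, differed by −1.55 and −1.97 (adjusted p = 0.0172 and 0.0476). Tnfaip2 passed only without miR-324 1 and Nfkbia in no fit without 1 array. Il6, named after its values were seen, was at 4.93, 5.18 and 4.79 against 6.00, 12.03 and 10.80 and did not pass (adjusted p = 0.132); miR-324 1 lay near the miR-21 arrays.

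Endothelial markers were lower in the miR-21 arrays, 7 of 15 past the threshold and 0 higher, where 1.14% of all genes were called lower. Endothelial cells line blood vessels, and this list holds their junction proteins, growth factor receptors and transcription factors. All 15 were lower in the mean with a median difference of −3.31, and 13 had separate groups, against 8.40% of all genes. Per array, the median level of the list was 9.22, 8.42 and 9.21 with miR-21, 11.91, 11.98 and 10.88 with miR-324 and 9.13, 9.62 and 11.13 with scramble, so that scramble 1 and 2 lay near the miR-21 arrays. In each fit without 1 array 1 or 2 of the 15 passed. With only the 6 compared arrays 12 passed, and with the suffix as a fixed block all 15.

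Ly6c1, found on the surface of vessel lining cells and monocytes, stood at 5.05, 5.45 and 7.04 with miR-21, 11.80, 10.82 and 10.75 with miR-324 and 11.60, 10.77 and 9.52 in scramble. It was lower in the miR-21 arrays by 5.28 ± 0.58 (adjusted p = 0.00287), passed in all 6 fits without 1 array, and was about as high in scramble 1 and 2 as in the miR-324 arrays. Cldn5, the tight junction protein of brain vessels, was at 5.50, 6.03 and 5.58 against 9.86, 11.98 and 10.88, with scramble at 6.28, 6.75 and 11.92 (−5.20 ± 1.19, adjusted p = 0.0421). The transcription factor Erg was at 9.50, 8.42 and 9.57 against 13.82, 12.86 and 13.21, with scramble at 9.13, 9.98 and 12.72 (−4.13 ± 0.96, adjusted p = 0.0449). Tek, the angiopoietin receptor, differed by −3.66 ± 0.76 (adjusted p = 0.0277), and Tie1, Kdr and Sox18, named after their values were seen, by −3.51, −3.45 and −3.30. Kdr passed only without miR-324 2 and Cldn5, Erg, Tek, Tie1 and Sox18 in no fit without 1 array. Cdh5, the endothelial cadherin, was separate at 12.94, 12.45 and 13.12 against 16.80, 15.65 and 15.98 and did not pass (−3.31 ± 0.92, adjusted p = 0.0926). With only the 6 compared arrays in the fit the adjusted p of Cdh5 was 0.000514.

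Dll4, a Notch ligand of sprouting vessels and the largest difference after Prl among the called lower genes, stood at 5.91, 4.71 and 6.85 with miR-21, 9.83, 14.05 and 13.64 with miR-324 and 7.51, 7.38 and 14.24 in scramble (−6.68 ± 1.56, adjusted p = 0.045). Ednrb, the endothelin B receptor of glia and vessels, was at 9.26, 9.20 and 9.56 against 11.56, 16.02 and 15.23, with scramble at 12.39, 13.05 and 15.82 (−4.93 ± 1.04, adjusted p = 0.0313). In both genes miR-324 1 was the lowest of its group, and both passed among the fits without 1 array only without it. Mmp3, the matrix protease stromelysin, was at 4.81, 5.02 and 5.93 against 9.51, 11.52 and 10.06, with scramble at 8.34, 7.94 and 11.21 (−5.11 ± 0.73, adjusted p = 0.00588), and passed in all 6.

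**Figure D4:**
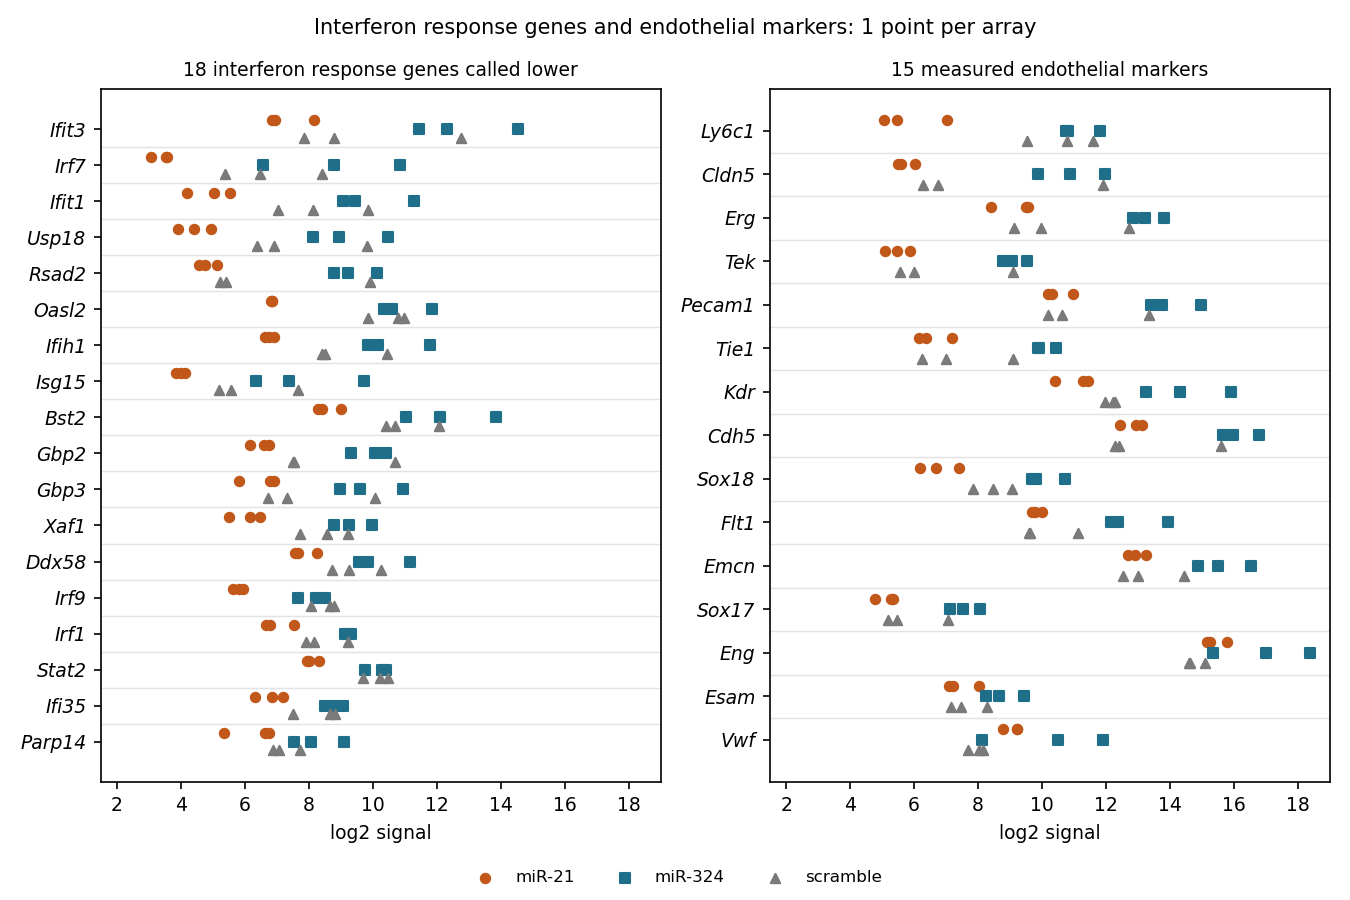
Log2 signal (horizontal axis) of the 18 interferon response genes called lower (left) and the 15 measured endothelial markers (right) in the miR-21, miR-324 and scramble arrays, 1 point per array. The miR-21 and miR-324 points do not overlap for any of the 18 interferon genes, and in endothelial markers such as Cldn5, Erg, Tek and Cdh5 scramble 3 lies near the miR-324 points and scramble 1 and 2 near the miR-21 points.

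Most genes of the 3 glial lists did not pass, and all but 1 of those that did were higher in the miR-21 arrays. Schwann cells build myelin from lipid and a small set of proteins under the control of Sox10 and Egr2. Of 17 measured myelinating Schwann cell genes 3 were higher and 0 lower, where 1.31% of all genes were called higher. All 17 were higher in the mean with a median difference of 1.41, and 15 had separate groups, against 13.0% of all genes. Per array, the median level of the list was 9.54, 8.52 and 9.14 with miR-21, 7.57, 6.42 and 6.35 with miR-324 and 7.33, 7.49 and 6.13 with scramble. Without 1 array the count was 1 to 6, the highest without miR-324 1. With only the 6 compared arrays in the fit it was 10.

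Pmp2, a fatty-acid-binding protein of peripheral myelin, was the gene with the largest difference among the higher ones. Pmp2 stood at 12.86, 12.68 and 13.05 with miR-21, 7.57, 4.96 and 5.71 with miR-324 and 8.85, 8.97 and 4.24 in scramble, a 110.2-fold difference between the miRNA groups (6.78 ± 1.02, adjusted p = 0.00801), and passed in all 6 fits without 1 array. Pmp22, a myelin membrane protein whose dosage matters in inherited neuropathy, was at 16.52, 16.53 and 16.93 against 14.28, 14.67 and 14.74, with scramble at 16.05, 16.56 and 15.00 (2.10 ± 0.39, adjusted p = 0.0169). Cldn19, a claudin of Schwann cell tight junctions, was at 9.13, 8.21 and 8.64 against 6.66, 6.02 and 6.34, with scramble at 6.09, 5.72 and 5.52 (2.32 ± 0.45, adjusted p = 0.0217). Pmp22 and Cldn19 passed among the fits without 1 array only without miR-324 1. Mbp, the myelin basic protein, was separate at 14.22, 14.40 and 14.60 against 12.94, 11.04 and 11.26 and did not pass (2.66 ± 0.82, adjusted p = 0.133).

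Of 14 satellite glia genes 3 were higher and 1, Ednrb, lower (median 1.22), against 1.31% and 1.14% of all genes. The adhesion molecule Cadm4 stood at 14.53, 14.70 and 14.41 against 11.85, 10.71 and 10.99, with scramble at 12.70, 13.38 and 10.14 (3.36 ± 0.62, adjusted p = 0.0172). Erbb3, the neuregulin receptor that glia need to survive, differed by 3.00 ± 0.55 (adjusted p = 0.0163), and Foxd3, a transcription factor of the neural crest and its glia, by 2.29 ± 0.46 (adjusted p = 0.0232). All 3 passed among the fits without 1 array only without miR-324 1. Of 16 genes of immature and repair Schwann cells 2 were higher and 0 lower. Cdh2, N-cadherin, stood at 13.44, 13.53 and 13.45 against 10.87, 10.22 and 10.41, with scramble at 12.21, 12.36 and 10.56 (2.97 ± 0.42, adjusted p = 0.00588), and passed in all 6 fits. Ncam1, the neural cell adhesion molecule, was at 15.56, 15.28 and 15.40 against 11.22, 11.54 and 11.50, with scramble 1 and 2 at 14.79 and 14.78 and scramble 3 at 11.46; it differed by 3.99 ± 0.89 (adjusted p = 0.0378) and passed in no fit without 1 array.

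Some matrix genes were higher in the miR-21 arrays and most did not pass. Over all genes 1.31% were called higher. Collagens of type I and V form the fibrils of connective tissue, and laminins the basement membrane around Schwann cells and vessels. Of 28 collagen chains 5 were higher and 0 lower (median 0.40), all of them chains of types I, V and XXVIII, while the measured chains of types IV and VI did not pass. Col1a2 stood at 15.45, 15.10 and 15.38 with miR-21, 10.22, 8.31 and 9.40 with miR-324 and 12.56, 11.63 and 8.40 in scramble, a 64.0-fold difference (6.00 ± 0.83, adjusted p = 0.0052). Its partner Col1a1 was at 13.06, 11.53 and 13.20 against 8.67, 7.34 and 7.79 (4.66 ± 0.96, adjusted p = 0.0263). Both chains of the type I trimer therefore differed in the same direction, with scramble 1 and 2 between the groups. Col5a2 and Col5a1, chains of the type V collagen that starts fibrils, differed by 3.73 ± 0.51 and 2.73 ± 0.47 (adjusted p = 0.00516 and 0.0123), and Col28a1, a collagen of peripheral nerve named after its values were seen, by 2.50. Col1a2 and Col5a2 passed in all 6 fits without 1 array, Col5a1 only without miR-21 2 or miR-324 1, Col1a1 only without miR-324 1 and Col28a1 in none.

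Of 42 other matrix proteins and matrix enzymes 5 were higher and 1, Mmp3, lower, against 1.31% and 1.14% of all genes. In the mean 35 were higher, with a median difference of 1.21. Lama2, the laminin chain of Schwann cell and muscle basement membranes, stood at 11.37, 11.61 and 11.40 against 7.08, 7.93 and 7.60, with scramble at 9.19, 9.15 and 7.61, a 15.2-fold difference (3.92 ± 0.41, adjusted p = 0.00287), and passed in all 6 fits without 1 array. Postn, periostin, a protein that links collagen to cells, was at 14.78, 14.39 and 14.69 against 9.20, 9.21 and 9.27, with scramble at 12.40, 12.17 and 9.35 (5.39 ± 0.86, adjusted p = 0.00915), and failed only without miR-21 1. The tenascin Tnn was at 9.81, 5.33 and 10.56 against 5.04, 3.32 and 3.89 (4.48 ± 1.01, adjusted p = 0.0389). miR-21 2 was close to the miR-324 arrays in Tnn, and the call was present only without miR-21 2 or miR-324 1 among these fits and absent with only the 6 compared arrays (adjusted p = 0.0513). Lamc1 and Lamb1, the latter named after its values were seen, differed by 1.55 and 1.16 (adjusted p = 0.0178 and 0.0262) and passed only without miR-324 1. Hspg2, perlecan of the same membranes, was separate at 14.10, 13.60 and 13.86 against 13.23, 11.66 and 11.81, and did not pass (1.62 ± 0.59, adjusted p = 0.213).

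Fibroblast markers other than the type I collagens did not pass: Col1a1 and Col1a2 were the 2 called of 17 (median 0.50), and Dcn, a proteoglycan of fibroblasts named after its values were seen, differed by −2.07 (adjusted p = 0.31). Of 14 mural cell markers, of the pericytes and smooth muscle around vessels, 1 was higher, the proteoglycan Cspg4, at 10.50, 9.55 and 10.36 against 8.52, 6.87 and 6.70 (2.77 ± 0.50, adjusted p = 0.0155; passing only without miR-21 2 or miR-324 1). Actg2, the smooth muscle gamma actin that is not on that list, stood at 10.13, 9.96 and 9.72 with miR-21, 4.19, 4.64 and 4.06 with miR-324 and 8.46, 8.25 and 3.78 in scramble (5.64 ± 1.17, adjusted p = 0.0277), and passed in no fit without 1 array. Tagln, a contractile gene named after its values were seen, differed widely within the miR-324 group, at 15.22, 7.18 and 12.49. With miR-21 it was at 16.62, 16.61 and 16.52, and it did not pass (adjusted p = 0.218). Of 16 meningeal and barrier fibroblast markers 1 was higher, the small proteoglycan Ogn (1.87, adjusted p = 0.0262), again only without miR-324 1 in the fits without 1 array. The counts of these lists stand against 1.31% of all genes called higher.

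The other genes of the 12 largest higher differences included signalling proteins. Sfrp1, a secreted Wnt antagonist, stood at 13.51, 13.04 and 13.55 with miR-21, 7.81, 8.33 and 8.38 with miR-324 and 12.93, 13.08 and 8.34 in scramble (5.19 ± 1.10, adjusted p = 0.0318). Scramble 1 and 2 were about as high as the miR-21 arrays. Vgll3, a cofactor of TEAD transcription factors, was at 15.40, 15.66 and 15.59 against 11.96, 10.26 and 10.61, with scramble at 14.13, 14.18 and 9.86 (4.61 ± 0.93, adjusted p = 0.0245). Cdh6, a cadherin of the neural crest, was at 12.85, 12.50 and 12.88 against 9.25, 7.38 and 8.24 (4.45 ± 0.71, adjusted p = 0.00915). Olfml2a, Slc35f1 and Pdgfc, a growth factor for mesenchymal cells, differed by 4.11, 4.10 and 4.09 (adjusted p = 0.0232, 0.0344 and 0.0232). Without 1 array Cdh6 failed only without miR-21 1, Vgll3, Olfml2a and Pdgfc passed only without miR-324 1, and Sfrp1 and Slc35f1 passed in none.

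**Figure D5:**
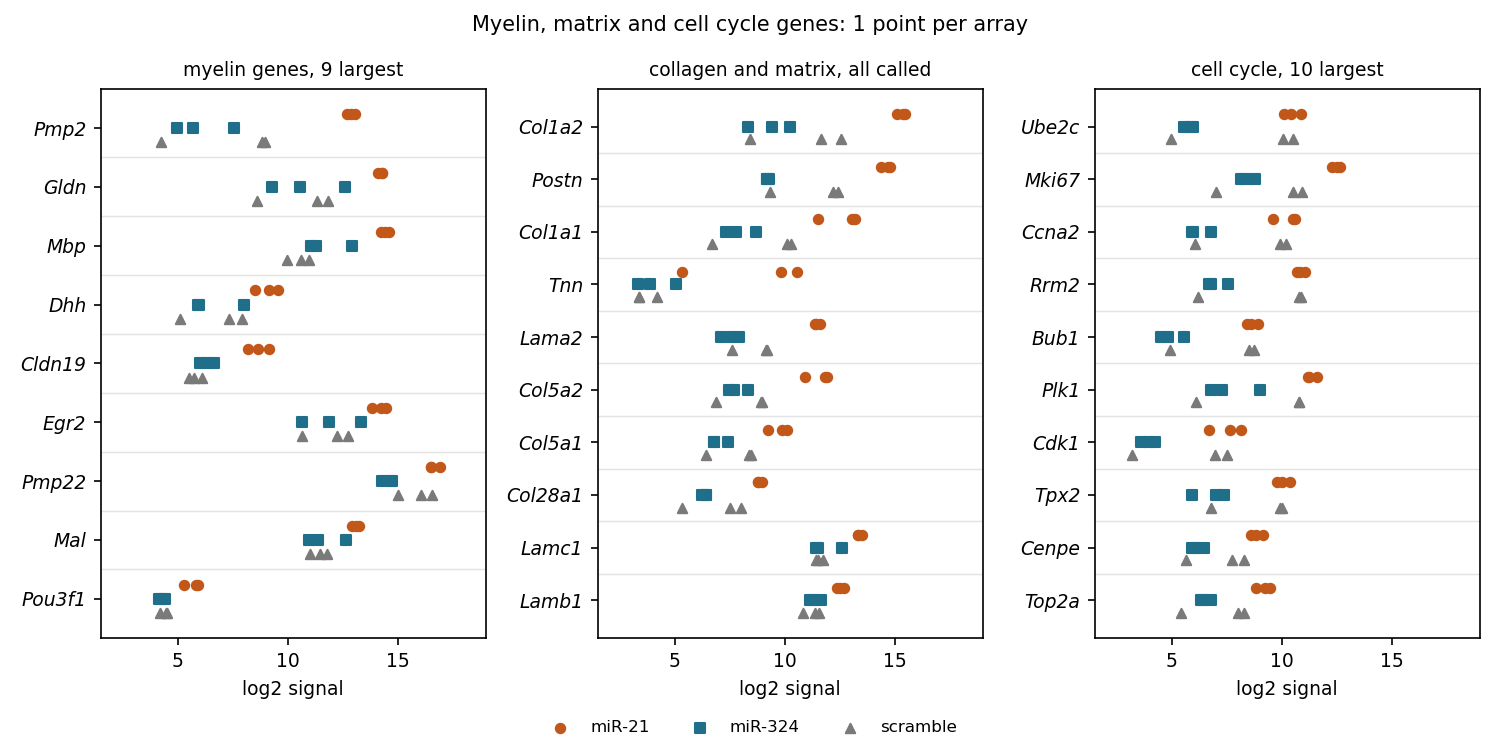
Log2 signal (horizontal axis) of the 9 myelin genes with the largest differences (left), the 10 collagen and matrix genes called higher (middle) and the 10 cell cycle genes with the largest differences (right), 1 point per miR-21, miR-324 or scramble array. All 29 genes have miR-21 points above every miR-324 point, and the 3 called of the 9 myelin genes are Pmp2, Pmp22 and Cldn19, while none of the 10 cell cycle genes shown passed.

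Cell cycle genes were higher in every mean and seldom past the threshold. Dividing cells copy their DNA with the Mcm helicase and divide under kinases such as Cdk1 and Aurka, whereas mature neurons have left the cycle. All 28 measured genes were higher in the mean in the miR-21 arrays, 26 with separate groups, with a median difference of 2.17. Per array, the median level of the list was 8.91, 8.85 and 8.82 with miR-21, 6.78, 6.39 and 6.64 with miR-324 and 8.58, 8.65 and 6.17 with scramble, so that scramble 1 and 2 were near the miR-21 arrays and scramble 3 below the miR-324 arrays. In the fit 2 of 28 passed, where 1.31% of all genes were called higher. Cenpf, a kinetochore protein, stood at 5.39, 5.24 and 5.60 against 3.66, 3.37 and 3.96 (1.75 ± 0.29, adjusted p = 0.01), and the kinase Aurka at 8.30, 8.18 and 7.21 against 5.75, 5.64 and 5.67 (2.21 ± 0.51, adjusted p = 0.044). Cenpf failed only without miR-21 1, and Aurka passed in no fit without 1 array, so that 0 or 1 of 28 passed in each of these. Mki67, the marker of dividing cells, was at 12.53, 12.28 and 12.63 against 8.14, 8.34 and 8.78, with scramble at 10.93, 10.49 and 7.02, and did not pass (4.06 ± 1.11, adjusted p = 0.088). The spread within the scramble and miR-34a groups enters the error of the fit: with only the 6 compared arrays 19 of 28 passed, and with a fixed block for the label suffix 24.

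Neuronal genes did not separate the groups as a whole. Of 29 pan-neuronal genes 0 passed, with 18 higher and 11 lower in the mean (median 0.12). Per array, their median level was 10.83, 10.79 and 11.25 with miR-21, 9.46, 11.55 and 11.74 with miR-324 and 12.87, 13.28 and 11.80 with scramble, so that miR-324 1 was the lowest of all, and without it the median difference was −0.40. Snap25, a synaptic fusion protein, stood at 14.02, 13.92 and 14.57 against 12.09, 14.74 and 14.54 (0.38 ± 0.83, adjusted p = 0.891). Tubb3, with the values above, differed by 0.85 ± 1.06 (adjusted p = 0.789).

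Of 29 sensory neuron genes 3 were higher and 0 lower (median 0.63, and 0.20 without miR-324 1). Over all genes 1.31% were called higher. Mrgprd, a receptor of itch and pain fibres in the skin, stood at 7.20, 6.35 and 7.82 with miR-21, 3.91, 4.38 and 4.42 with miR-324 and 6.34, 5.40 and 4.63 in scramble (2.89 ± 0.51, adjusted p = 0.0133). Runx1, a transcription factor of such fibres that is also used in other cell types, was at 12.36, 12.18 and 12.20 against 10.55, 10.78 and 10.70 (1.57 ± 0.30, adjusted p = 0.0205). Ntrk2, the receptor for brain-derived neurotrophic factor, was at 9.87, 9.68 and 9.73 against 6.60, 8.18 and 7.32 (2.39 ± 0.55, adjusted p = 0.0421). Mrgprd passed in 3 of the 6 fits without 1 array, and Runx1 and Ntrk2 in none. The pain channels of this list, which the rule for names left out, did not pass; Trpv1 and Scn10a, named after their values were seen, differed by 0.94 and 1.59 (adjusted p = 0.76 and 0.574).

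Nerve injury and regeneration genes had 1 of 28 higher and 1 lower (median −0.26), against 1.31% and 1.14% of all genes. Lif, a cytokine that Schwann cells and other cells release after nerve damage, stood at 13.56, 13.10 and 13.47 against 11.51, 11.19 and 10.75, with scramble at 11.92, 11.86 and 11.70 (2.23 ± 0.32, adjusted p = 0.00638), and passed in all 6 fits without 1 array. The scramble arrays lay together in Lif, nearer to miR-324. Hspb1, a small heat shock protein that supports injured neurons, was at 10.43, 10.59 and 11.02 against 12.40, 12.08 and 12.17, with scramble at 12.08, 12.63 and 12.77 (−1.54 ± 0.28, adjusted p = 0.0157), and failed without miR-21 1, miR-21 2 or miR-324 4. Here too the 3 scramble arrays lay with miR-324.

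Axon guidance genes, 28 measured, had 1 higher and 3 lower, against 1.31% and 1.14% of all genes. Slit3, a repellent for axons that Robo receptors detect, stood at 10.85, 10.20 and 10.14 against 7.08, 7.48 and 7.09, with scramble at 9.10, 9.22 and 7.11 (3.18 ± 0.56, adjusted p = 0.0136). The ephrins Efna1 and Efnb2 and the semaphorin Sema3f were lower by 2.48, 1.61 and 2.24 (adjusted p = 0.0233, 0.029 and 0.0118); ephrins also act in vessels. Slit3 and Sema3f passed only without miR-21 3, miR-324 1 or miR-324 2, Efna1 only without miR-324 1 and Efnb2 in none.

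A transcript silenced by a miRNA is lower where that miRNA is added, and the lists of reported targets address this. Of 42 measured reported miR-21 targets 0 were lower and 2 higher in the miR-21 arrays, against 1.14% and 1.31% of all genes. With so small a share called lower, 0 of 42 does not tell this list from all genes. In the mean 25 of 42 were higher (median 0.08 against 0.05 over all genes). The 2 called higher were Jag1, a Notch ligand, at 15.06, 15.03 and 14.97 against 14.23, 12.46 and 12.53 (1.95 ± 0.46, adjusted p = 0.0457), and Bcl2, an inhibitor of cell death, at 12.21, 12.39 and 12.40 against 10.54, 10.72 and 10.92 (1.61 ± 0.29, adjusted p = 0.015). Jag1 passed only without miR-324 1, and Bcl2 only without miR-324 1 or 4. Pdcd4, a translation inhibitor, stood at 10.96, 11.45 and 11.29 against 11.92, 11.41 and 11.40 (−0.34 ± 0.25, adjusted p = 0.609), and the groups overlapped.

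Of 19 measured reported miR-324 targets 1 was higher in the miR-21 arrays, which is lower in the miR-324 arrays, and 0 were lower (median 0.15). Over all genes 1.31% were called higher, and 1 call does not tell this list from all genes. Gli3, a transcription factor of Hedgehog signalling, stood at 6.77, 7.27 and 7.35 against 5.66, 5.85 and 5.77, with scramble at 7.15, 6.50 and 6.26 (1.37 ± 0.30, adjusted p = 0.0362), and passed in no fit without 1 array. Smo, the signalling receptor of that pathway, was at 6.88, 7.43 and 6.88 against 6.61, 6.31 and 6.60 (0.56 ± 0.24, adjusted p = 0.306). Gli1, which reads out the pathway, was at 5.40, 5.83 and 5.17 against 6.29, 5.73 and 6.19 (−0.60 ± 0.29, adjusted p = 0.371). A comparison of 2 miRNAs shows only their difference, and the levels of the miRNAs themselves were not measured here.

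Sterol and stress genes had single calls, where 1.31% of all genes were called higher and 1.14% lower. Of 19 cholesterol synthesis genes 1 was lower, Insig1, which keeps the sterol-sensing transcription factors inactive, at 10.18, 9.85 and 9.97 against 10.85, 11.85 and 11.65, with scramble at 11.75, 11.98 and 11.83 (−1.45 ± 0.28, adjusted p = 0.0218; only without miR-324 1 in the fits without 1 array). Of 23 integrated stress response genes 1 was lower, the cystine transporter Slc7a11, at 8.60, 8.73 and 9.25 against 10.76, 13.34 and 12.97 (−3.50 ± 0.75, adjusted p = 0.0322; only without miR-324 1), and 1 higher, the lipoprotein receptor Vldlr (1.55 ± 0.27, adjusted p = 0.0118; in 3 of the 6 fits). Of 14 lymphocyte and mast cell markers 1 was lower, the receptor Kit, at 9.75, 10.58 and 10.39 against 12.67, 13.85 and 13.32 (−3.04 ± 0.66, adjusted p = 0.0336; only without miR-324 1), which other cell types also use.

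The remaining lists held no called gene: 19 macrophage, 14 skeletal muscle, 15 epithelial, 11 melanocyte, 2 erythroid, 11 adrenergic, 8 cholinergic, 24 p53 target, 20 immediate early, 22 hypoxia and glycolysis, 31 oxidative phosphorylation and 23 Hox genes, with medians from −0.37 to 0.60. Per array, the median level of the macrophage markers was 5.32, 5.16 and 5.40 with miR-21 and 4.79, 4.66 and 4.80 with miR-324, against 7.90 and 7.85 in scramble 1 and 2 and 4.94 in scramble 3; their receptor Csf1r stood at 6.39, 5.11 and 6.05 against 5.03, 4.05 and 4.80 (adjusted p = 0.727). The enzymes of noradrenaline synthesis did not pass, Th at 6.93, 6.34 and 5.78 against 5.60, 5.35 and 4.61 (1.16 ± 0.45, adjusted p = 0.245) and Dbh at 4.39, 4.98 and 4.02 against 3.69, 4.33 and 5.04 (0.11 ± 0.41, adjusted p = 0.939).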

How the data were processed

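The data are 12 Clariom S Mouse arrays, 3 per group. The deposited values are log2 signals; the submitters' processing notes name RMA (robust multi-array average) and Transcriptome Analysis Console 4.0 as the authors' tools. RMA sets all arrays to a common distribution, which removes changes in total signal, and signals near the array floor understate differences. Array medians were 5.91 to 6.06, and no 2 arrays held the same values. All 19572 named probes matched RefSeq of GRCm38.p6, and 2634 probes were unnamed here. The fit and the counts over all genes took every named probe; for gene lists and named genes with several probes (55 of 19505 symbols) the brightest was used. The group means of all 12 arrays entered 1 fit in limma 3.58.1 (R 4.3.3, lmFit and eBayes, 8 residual degrees of freedom), and genes were called at a two-sided Benjamini-Hochberg adjusted p under 0.05. Precision is limited by 3 arrays a group. Genes named are the 12 largest called differences of each direction with separate groups, placeholders left out, up to 4 called members per list and direction, and a fixed set of single genes. The members and the 36 lists were chosen with earlier results of these data known. Deviations from the group means were nearly uncorrelated between same-numbered arrays of the 2 groups (r = 0.01 and −0.05 for numbers 1 and 2). Only these numbers occur in both groups, so this does not settle whether equal numbers pair arrays. Effects of other settings are given last.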

Additional observations from a re-analysis of the deposited data

How the results depend on the processing

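Against 481 calls (257 higher, 224 lower), array weights gave 1788 (1125 and 663), only the 6 compared arrays 1043 (680 and 363), a fixed block for the label suffix 1354 (794 and 560) and a random block 803 (439 and 364). Calling at 2-fold or more and an unadjusted p under 0.05 gave 1403 (849 and 554), and an adjusted p under 0.10 gave 764 (426 and 338). Leaving out 1 array gave 86 to 402 calls (40 to 234 higher, 46 to 168 lower); fewer arrays enter that fit. The label number as a replicate block gave 23 (6 and 17), with 1 of 29 interferon response genes and 2 of 15 endothelial markers lower. Whether equal numbers pair arrays is not known. Number 4 occurs only in miR-324 4, so this block in effect removes that array. Quantile normalization again, median centring, brighter probes only and a variance trend gave 454 to 507. None of the 84 named genes, where tested, reversed under these 4. Among genes not called, array weights turned Dbh to −0.29 and Snap25 to −0.0282. Without 1 array Dbh ranged from −0.22 (without miR-324 1) to 0.4533, and was −0.15 without miR-21 2, Snap25 from −0.47 (without miR-324 1) to 0.8550, Fshb from −0.4833 to 0.195 (without miR-324 1), with 0.0067 without miR-21 1, and Tshb from −0.3483 to 0.0267 (without miR-21 3); the cause was not tested. Signal over background was not given per probe, so low levels are of uncertain size.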
